A study of Mus musculus with 9 samples.

Results

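The 4 Hox clusters were examined as a group of ATAC-seq peaks in D2A1-d cells, a line the labels describe as murine breast carcinoma. All deposited peaks that start inside 4 windows were taken, whatever their level: chr6:52100000-52300000 (Hoxa), chr11:96150000-96400000 (Hoxb), chr15:102880000-103060000 (Hoxc) and chr2:74640000-74790000 (Hoxd), in mm10. This gave 58 of 146,734 peaks, with 35 in Hoxa, 10 in Hoxb, 9 in Hoxc and 4 in Hoxd, and 38 Hox genes were listed for them. In ATAC-seq a transposase cuts and tags DNA where chromatin is open, so the reads under a peak measure how open that stretch was. The 9 libraries fall into 3 groups of 3: cells transduced with a non-targeting control (NTC, genotype labelled WT), with Med4 hairpin #1 and with Med4 hairpin #4 (both labelled Med4 Knockdown). Cells of all groups were otherwise labelled untreated, and the labels do not say whether a line was a clone or a pool. MED4 belongs to Mediator, a coactivator between DNA-bound factors and RNA polymerase II.

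Hox genes encode homeodomain transcription factors that give cells along the body axis their positional identity. Genes of a cluster lie in the same orientation and in the order of their paralog number, with low numbers active early and towards the head, and high numbers later and towards the tail. Each gene is read towards the lower numbers, Polycomb complexes keep clusters compact and silent where they are not used, and adult tissues and tumours keep a part of the embryonic pattern. In the mammary gland several members act in epithelium and stroma, and HOXA5 is known as a regulator of differentiation in breast epithelium.

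Depth was high: libraries held 44.8 to 98.9 M reads in peaks, and the median peak held 110 to 247 reads. The shallowest library was hairpin #4 replicate 3. No pair of libraries had the same value at more than 0.00136% of peaks. The peak of NTC mean 544 ± 24.2 (SD, n = 3) at one end of Med4 itself was lower with both hairpins (-0.24 on the log2 scale with an SE of 0.06, limma adjusted p = 0.0017), but a hairpin acts on the messenger RNA, so accessibility checks nothing about the knockdown. Of marker genes, 6 of 7 mesenchymal genes had a peak at a gene end in these cells (NTC means 70.4 to 4155), all but Cdh2. Among epithelial genes 3 of 10 had one, Krt8, Krt18 and Cldn7 (67.6 to 929). Epcam, Cdh1, Krt7, Krt19, Cldn4, Esrp1 and Grhl2 had no gene-end peak. The immune gene Ptprc, the endothelial gene Pecam1 and the adipocyte gene Adipoq had none, while 2 of 6, 1 of 4 and 1 of 3 genes of those lists did. Summed mesenchymal signal was 10910 to 11880 in NTC, 9372 to 9755 with hairpin #1 and 9034 to 10197 with hairpin #4, and summed epithelial signal was 1145 to 1190, 1158 to 1232 and 1410 to 1454. The single endothelial gene with a peak, Cdh5, had 231 to 250 in NTC, 413 to 472 with #1 and 268 to 303 with #4, the 2 immune genes had 730 to 776, 648 to 734 and 612 to 677, and the adipocyte gene Fabp4 had 130 to 193, 118 to 138 and 157 to 162. The part of these shifts in the results on Hox peaks was not tested.

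The 5 stretches that follow are the 250 bases before the RefSeq start (GRCm38.p6) of 5 transcripts in the Hoxa window that lie wholly or partly under a peak. They are shown because the results turn on these starts: the start of Halr1 gained accessibility, that of Gm15050 gained, that of Hoxa5 lost, and those of Hoxa2 and Hoxa6 passed no test. Capitals mark matches, on either strand, to any of 7 motifs whose letters are given after the sequences.
Halr1, chr6:52102699-52102948, plus strand: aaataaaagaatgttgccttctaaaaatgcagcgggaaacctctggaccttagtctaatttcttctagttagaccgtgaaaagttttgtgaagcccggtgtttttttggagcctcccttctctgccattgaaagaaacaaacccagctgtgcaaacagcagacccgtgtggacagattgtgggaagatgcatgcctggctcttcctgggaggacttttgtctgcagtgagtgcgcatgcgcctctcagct
Gm15050, chr6:52172631-52172880, plus strand: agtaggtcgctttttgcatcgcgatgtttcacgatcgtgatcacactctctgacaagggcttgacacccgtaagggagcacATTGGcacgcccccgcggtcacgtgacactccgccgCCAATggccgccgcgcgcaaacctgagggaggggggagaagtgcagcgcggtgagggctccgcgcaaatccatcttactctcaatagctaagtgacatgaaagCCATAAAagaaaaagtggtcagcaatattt
Hoxa2, chr6:52164832-52165081, minus strand: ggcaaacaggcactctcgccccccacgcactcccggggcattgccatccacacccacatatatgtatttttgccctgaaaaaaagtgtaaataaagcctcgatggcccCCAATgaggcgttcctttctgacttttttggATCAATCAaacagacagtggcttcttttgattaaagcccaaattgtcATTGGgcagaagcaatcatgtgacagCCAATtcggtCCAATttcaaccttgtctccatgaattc
Hoxa5, chr6:52204588-52204837, minus strand: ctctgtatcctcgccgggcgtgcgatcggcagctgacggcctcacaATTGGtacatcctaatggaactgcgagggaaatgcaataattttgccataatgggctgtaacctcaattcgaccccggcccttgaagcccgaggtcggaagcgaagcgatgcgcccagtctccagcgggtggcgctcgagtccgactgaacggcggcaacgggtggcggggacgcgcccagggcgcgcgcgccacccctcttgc
Hoxa6, chr6:52208673-52208922, minus strand: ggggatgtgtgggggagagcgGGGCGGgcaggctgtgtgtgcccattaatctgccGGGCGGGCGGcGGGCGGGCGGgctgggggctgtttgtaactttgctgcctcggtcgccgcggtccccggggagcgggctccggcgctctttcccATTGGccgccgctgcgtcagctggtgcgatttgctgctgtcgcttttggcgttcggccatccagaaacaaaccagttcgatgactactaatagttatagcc

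The Hoxa2 stretch held 4 CCAAT boxes and 1 joint Hox-Pbx site, and the Hoxa6 stretch held 1 CCAAT box and 5 GC boxes, some of which overlap one another. Gm15050 had 2 CCAAT boxes and 1 posterior Hox site, Hoxa5 had 1 CCAAT box, and the Halr1 stretch matched none of the 7. Over the same length, 33.9% of the 32,851 promoters in the RefSeq table held a CCAAT box (the letters CCAAT). A GC box, searched as GGGCGG, was present in 32.7% of those promoters. A single nuclear receptor site, searched as AGGTCA, was present in 14.0%, and a TATA box, searched with the 6 letters TATAAA, in 12.4%. Posterior Hox sites were searched as TTTATNG and found in 9.81% of the table. Sites for AP-1, a factor of the Fos and Jun families, were searched as TGANTCA and found in 6.75%. The joint Hox-Pbx site, searched as TGATTNAT, was the rarest of the 7, at 2.83%. CpG dinucleotides, which are dense in promoters kept unmethylated, numbered 28 in the Hoxa5 stretch, 24 in Hoxa6 and 20 in Gm15050, against 6 in Hoxa2, 6 in Halr1 and a median of 6 over all promoters. A match is a description of the letters and not a measured binding site.

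In control cells the open part of the Hox system was Hoxa. Its window held 17.5 peaks per 100 kb, against 5.0 in Hoxc, 4.0 in Hoxb, 2.67 in Hoxd and 5.73 over the genome. The 25th and 75th percentiles of all deposited peaks were 87.6 and 566 normalised reads in NTC, around a median of 184. The median NTC level was 332 in Hoxa and 102 in the other 3 clusters together, and 13 of 35 Hoxa peaks, but 0 of 23 in Hoxb, Hoxc and Hoxd, lay above 566. The strongest peaks included those at the starts of Hoxa5, Hoxa3 and Gm15050 and a peak 966 bp from the end of Hoxa9. Of the listed genes, 9 of 38 had a peak within 1 kb of their start: 7 of 10 in Hoxa, 1 of 10 in Hoxb (Hoxb8), 1 of 9 in Hoxc (Hoxc5) and 0 of 9 in Hoxd. A low value in bulk chromatin cannot be told apart between fewer cells with the site open and a less open site in each cell.

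**Figure D1:**
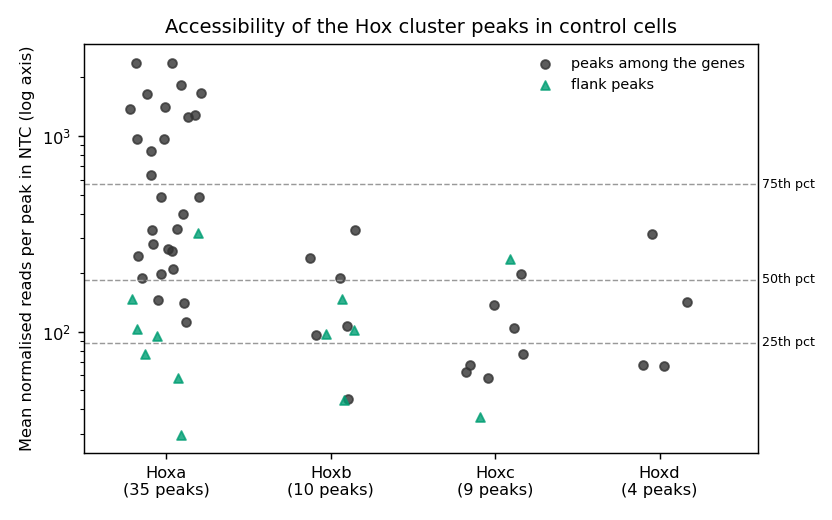
Mean normalised reads per peak in the 3 NTC libraries (log axis) for each of the 58 peaks, by cluster; triangles are peaks over 5 kb outside the outermost listed gene, and dashed lines are percentiles of all deposited peaks. Points above the 75th percentile (566) are all in Hoxa.

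The first comparison asked how many Hox peaks changed on Med4 knockdown, and in which direction. With both hairpins averaged, 13 of 58 peaks were higher and 15 lower than in NTC (limma adjusted p under 0.05), where 27.9% and 26.2% of all tested peaks were, or 54.1% in either direction. With hairpin #1, 15 were higher and 10 lower (27.9% and 24.9% of all peaks, 52.7% together). With hairpin #4, 16 were higher and 18 lower (26.2% and 24.3%, 50.4% together). Counting only peaks called in the same direction with each hairpin, which share their NTC libraries, 11 were higher (17.6% of all peaks) and 9 lower (13.5%), and 2 were called in opposite directions (3.17%). All 6 hairpin libraries lay above all 3 NTC libraries at 11 peaks (19.0% of all peaks) and below them at 13 (16.5%). The median log2 fold of the 58 peaks was -0.06, beside -0.02 for all tested peaks, and ranged from -0.06 to -0.03 with single libraries left out (-0.03 without hairpin #1 replicate 1). The number lower depends on the scaling: it was 9 after centring on peaks at gene ends (19.16% of all tested peaks) and 23 after centring on peaks away from them (37.51%). The balance turns with the scaling, to 14 higher and 9 lower after the first centring (32.28% and 19.16% of all tested peaks). For hairpin #1 it turns to 11 higher and 19 lower after the second, and the shares of all peaks for that case are not given. The number lower also fell whichever control library was left out, to 9, 11 and 11 without NTC replicates 1, 2 and 3. The share of all tested peaks called lower fell too, from 26.2% to 21.56%, 22.04% and 21.63%.

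Calls were also counted by position. Of the 13 peaks over 5 kb outside the outermost listed gene, 8 were higher and 0 lower with both hairpins averaged, with a median log2 fold of 0.46. Of the 45 peaks among or beside the genes, 5 were higher and 15 lower, with a median of -0.09. Over all tested peaks 27.9% were higher and 26.2% lower (median -0.02). Of genes with a gene-end peak, 11.6% were higher and 43.4% lower (median -0.11), and the part of this in the position counts was not tested. The flank peaks had 7 higher and 0 lower with hairpin #1 (27.9% and 24.9% of all tested peaks). With hairpin #4 they had 11 higher and 0 lower (26.2% and 24.3%). At an unadjusted limma p under 0.05, 0 of the 13 were lower with both hairpins averaged or with #4, and 1 with #1. With both hairpins averaged, 0 flank peaks were lower under each of the scalings tried. For the single hairpins this depends on the scaling: centred on peaks away from gene ends, 5 were higher and 2 lower with #1 and 10 and 1 with #4, and after quantile normalisation 6 and 1 with #1 and 10 and 1 with #4. Shares of all peaks for a single hairpin under these scalings are not given. Counted from the end of the outermost gene instead of from 5 kb beyond it, the flanks held 18 peaks, with 8 higher and 2 lower, and a median of 0.31. The 5 kb margin was chosen after the values were seen, and these counts carry no test. In NTC, 5 of the 13 flank peaks lay below the 25th percentile and 0 above the 75th, against 7 and 13 of the 45 others. A peak weak in NTC may be in the common set only through the hairpin libraries, and can then hardly be called lower. This limits the flank counts and the single weak peaks below, and peaks of like NTC level were not compared. Other peaks of the same chromosomes had medians of 0.12 for chromosome 6, -0.11 for 11, 0.03 for 15 and -0.25 for 2. In the 200 kb on each side of the windows, 16 of 34 peaks were higher and 7 lower beside Hoxa, 14 and 19 of 57 beside Hoxb, 14 and 6 of 62 beside Hoxc, and 5 and 4 of 14 beside Hoxd.

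Among the genes, the paralog ranges gave similar medians, and differences between them were not tested. Peaks nearest to paralogs 1 to 4 had 2 of 19 higher and 6 lower (median log2 fold -0.08), paralogs 5 to 8 had 1 of 12 higher and 4 lower (-0.09), and paralogs 9 to 13 had 2 of 14 higher and 5 lower (-0.13). The last median was -0.19 without NTC replicate 1 and -0.08 without hairpin #1 replicate 3. All but 1 of the 19 peaks of the first group were in Hoxa.

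**Figure D2:**
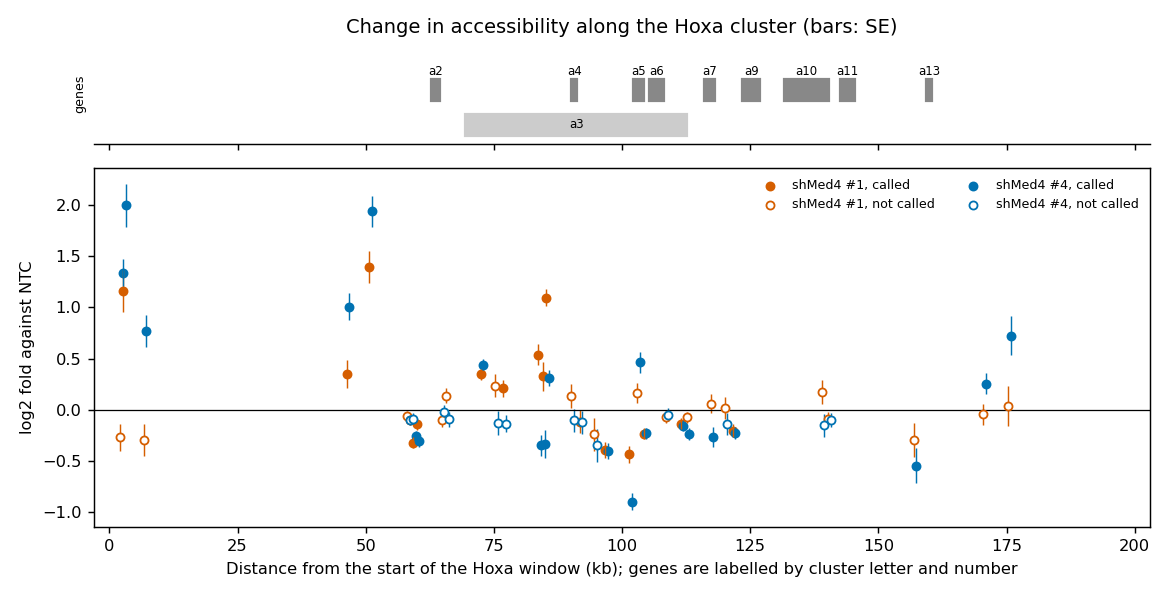
Log2 fold against NTC with its SE for each hairpin (orange #1, blue #4) at the 35 Hoxa peaks, by distance in kb from the start of the window, with the listed genes above; filled points passed the limma test. High folds lie to the left of Hoxa2, and folds from Hoxa5 to Hoxa13 lie mostly at or below 0.

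On the Hoxa flank, beyond Hoxa2, weak peaks of the control cells rose, some with both hairpins and others with hairpin #4. Halr1, a long non-coding RNA gene next to the cluster, starts under chr6:52102652-52103153. This peak had 29.1, 32.9 and 27 normalised reads in NTC, 55.2, 77.1 and 71.5 with hairpin #1, and 115, 116 and 132 with hairpin #4. The 3 groups did not overlap, and in NTC the level was below the 25th percentile of all peaks. The log2 fold was 1.58 (SE 0.18, limma adjusted p = 2.1e-09), and hairpin #4 was above hairpin #1 by 0.84 (SE 0.21, adjusted p = 0.0013).

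At the next peak upstream, chr6:52102084-52102585, the hairpins parted. It had 157, 132 and 149 reads in NTC, 119, 153 and 96.8 with hairpin #1, and 369, 389 and 353 with hairpin #4. Hairpin #1 overlapped NTC (log2 fold -0.27, adjusted p = 0.081), while hairpin #4 was higher by 1.34 (SE 0.13, adjusted p = 5.1e-11). The difference of 1.61 between hairpins (SE 0.13, limma adjusted p = 1.3e-12) was the largest in the 4 clusters. Another peak, inside Halr1 (chr6:52106687-52107188), showed the same split: 95.3 ± 9.68 in NTC, 77.3 ± 6.17 with #1 and 163 ± 14.7 with #4 (SD, n = 3 each), with a difference between hairpins of 1.07 (SE 0.16, limma adjusted p = 6.9e-07).

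Closer to the genes, a peak 11182 bp beyond Hoxa2 (chr6:52150734-52151235) had 44.4, 64.7 and 63.8 reads in NTC, 143, 148 and 162 with hairpin #1 and 256, 205 and 205 with hairpin #4. It showed the largest fold in the Hoxa window, at 1.67 (SE 0.13, limma adjusted p = 3.1e-13), again without overlap between the 3 groups. Its neighbour chr6:52146282-52146783 was higher by 0.68 (SE 0.12, adjusted p = 6.4e-06). At the other end of the cluster, beyond Hoxa13 and past Hottip, a long non-coding RNA gene known to act on the posterior Hoxa genes, 2 peaks were called with hairpin #4 (0.26 at chr6:52270413-52270914 and 0.73 at chr6:52275378-52275879) and not with hairpin #1 (-0.04 and 0.04). All 7 Hoxa flank peaks were higher with hairpin #4 than with hairpin #1 (20.4% of all peaks were called so).

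Hoxa2, which patterns the hindbrain and the second pharyngeal arch, had an open start that passed no test. Its peak had 987, 970 and 947 reads in NTC, 943, 885 and 877 with #1 and 991, 872 and 1012 with #4, and the groups overlapped (log2 fold -0.06, SE 0.05, limma adjusted p = 0.35). A second peak, 932 bp from the start, was not called against NTC, but #4 differed there from #1 by -0.23 (limma adjusted p = 0.011).

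Hoxa3, needed for the thymus, parathyroid and other pharyngeal organs, is the longest gene of the cluster in this annotation and spans several of its neighbours, so a peak inside it cannot be assigned to it alone. The start of Gm15050, a non-coding transcript inside it, lies under chr6:52172431-52172932. This strong peak had 1391, 1507 and 1347 reads in NTC, 1749, 1742 and 1906 with hairpin #1, and 1759, 1984 and 2032 with hairpin #4. All 6 hairpin libraries were above all NTC libraries (log2 fold 0.39, SE 0.05, limma adjusted p = 2.1e-08).

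A second gain within Hoxa3, 5996 bp from the start of Hoxa4 (chr6:52185206-52185707), was larger with hairpin #1: 259, 278 and 259 reads in NTC, 567, 552 and 586 with #1, and 318, 344 and 328 with #4. Hairpin #1 gave a log2 fold of 1.10 (SE 0.08, adjusted p = 3.3e-14), hairpin #4 one of 0.31 (SE 0.08, adjusted p = 0.0015), and #4 differed from #1 by -0.78 on the log2 scale (limma adjusted p = 5.4e-10). The 2 peaks just before it were called in opposite directions. At chr6:52183642-52184143 the reads were 239, 253 and 236 in NTC, 359, 343 and 356 with #1, and 170, 189 and 215 with #4, giving folds of 0.54 and -0.35. At chr6:52184557-52185058 they were 171, 142 and 124, then 180, 169 and 197, then 106, 110 and 129, giving 0.33 and -0.33.

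Other Hoxa3 peaks were lower. One at chr6:52196760-52197261 had 489 ± 36.3 in NTC, 371 ± 7.90 with #1 and 370 ± 5.98 with #4 (SD, n = 3 each), or -0.40 on the log2 scale (SE 0.07, limma adjusted p = 6.4e-06). The peak at the outermost start of Hoxa3 had 1660, 1654 and 1703 reads in NTC, 1593, 1575 and 1601 with #1, and 1331, 1376 and 1568 with #4. This small fold, -0.15 (SE 0.05, limma adjusted p = 0.0072), did not pass after centring on gene-end peaks (-0.09). Without that centring it passed with hairpin #4 (-0.23) and not with hairpin #1 (-0.07). The start of Hoxa4 had a weak peak with overlapping groups (209 ± 17.8, 192 ± 11.8 and 192 ± 9.38; log2 fold -0.12, limma adjusted p = 0.31).

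Hoxa5 had a loss at its start, a larger one towards its end and, with hairpin #4, a gain between them. Its start peak, chr6:52204232-52204733, had 1831, 1859 and 1800 reads in NTC, 1517, 1533 and 1626 with hairpin #1, and 1405, 1632 and 1655 with hairpin #4. All hairpin libraries were below all NTC libraries (log2 fold -0.23, SE 0.05, limma adjusted p = 0.00014), and the fold was the same with each hairpin. Towards its end, chr6:52201380-52201881 had 642, 590 and 675 reads in NTC, 469, 478 and 462 with #1, and 292, 343 and 393 with #4. At -0.67 on the log2 scale (SE 0.07, limma adjusted p = 9e-10) this was the largest loss in the 4 clusters, and #4 differed from #1 by -0.46 on the log2 scale. Another peak between them, chr6:52202997-52203498, was higher with both hairpins averaged (336 ± 52.2, 376 ± 49.7 and 460 ± 29.4; log2 fold 0.31, SE 0.09, limma adjusted p = 0.0021). It was called with hairpin #4 (0.46) and not with hairpin #1 (0.17, limma adjusted p = 0.16).

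Hoxa6, a gene of axial patterning, lies just beside Hoxa5, and its start peak gave 835, 869 and 802 reads in NTC, 793, 839 and 759 with #1, and 778, 816 and 831 with #4. The groups overlapped (log2 fold -0.06, SE 0.05, limma adjusted p = 0.38). Hoxa7 was called only with hairpin #4 at its one start peak (-0.27, SE 0.09, adjusted p = 0.018), and #4 differed from #1 by -0.33 (limma adjusted p = 0.0049).

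Among the posterior genes, a peak 966 bp from the end of Hoxa9, a regulator of blood progenitors, had 1284, 1289 and 1299 reads in NTC, 1096, 1112 and 1158 with #1, and 1022, 1069 and 1228 with #4. No hairpin library reached the NTC range (log2 fold -0.21, SE 0.05, limma adjusted p = 0.0007). The Hoxa10 start, with 970 ± 50.4, 915 ± 76.6 and 909 ± 72.3, passed no test (-0.09, limma adjusted p = 0.18). A peak 1438 bp from Hoxa13, a gene of limb and genital development, was lower (log2 fold -0.42 with an SE of 0.15, limma adjusted p = 0.015). It was called with hairpin #4 (-0.54) and not with hairpin #1 (-0.29).

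**Figure D3:**
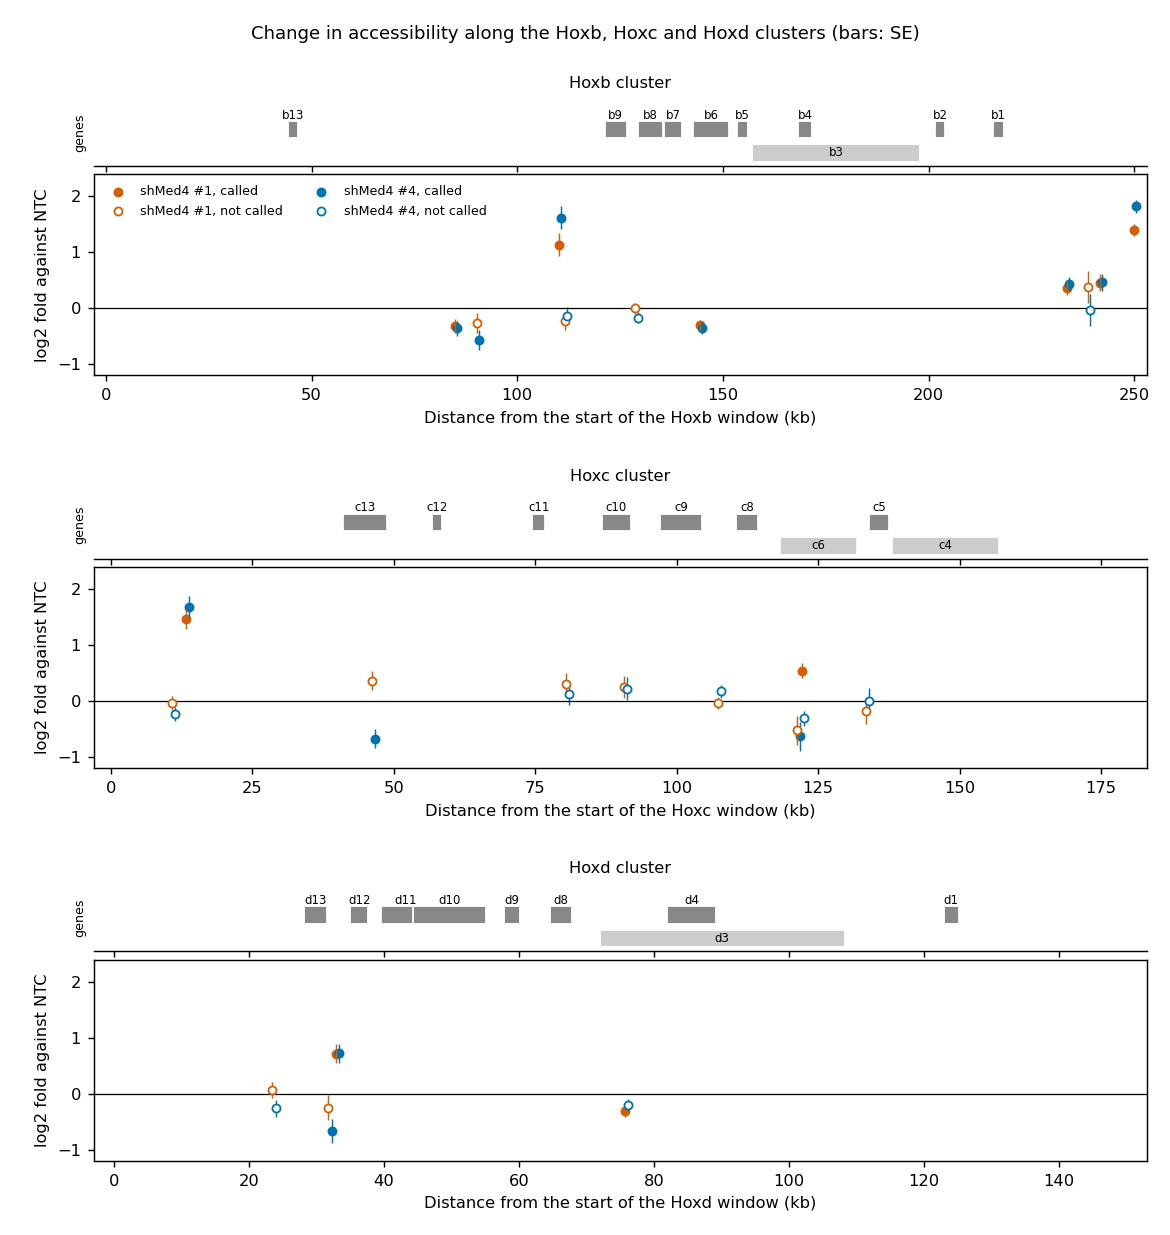
Log2 fold against NTC with its SE for each hairpin at the 10 Hoxb, 9 Hoxc and 4 Hoxd peaks, by distance in kb from the start of each window, with the listed genes above; filled points passed the limma test. The highest fold of Hoxb (1.61 over both hairpins) and that of Hoxc (1.58) lie outside the gene arrays.

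Hoxb was sparse. No peak lay nearest to its paralogs 1 to 4 except on the flank. The largest gain, chr11:96399878-96400379, was 31624 bp beyond Hoxb1 at the edge of the window: 92.8, 102 and 97.4 reads in NTC, 267, 256 and 251 with hairpin #1, and 319, 349 and 370 with hairpin #4. The 3 groups were separate (log2 fold 1.61, SE 0.09, limma adjusted p = 3.2e-17), with #4 above #1 by 0.42 (adjusted p = 0.0017). Flank peaks chr11:96391667-96392168 (0.46, SE 0.13) and chr11:96383575-96384076 (0.40, SE 0.11) were higher too.

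Between Hoxb13 and Hoxb9, inside the non-coding gene Gm53, chr11:96260202-96260703 had 28.2, 60.6 and 46.6 reads in NTC, 86.4, 104 and 97.9 with #1, and 114, 160 and 134 with #4 (log2 fold 1.38, SE 0.18, limma adjusted p = 4.1e-08). Hoxb6 held a peak that was lower (329 ± 28.7, 266 ± 15.5 and 259 ± 35.9; log2 fold -0.33, SE 0.09, limma adjusted p = 0.0019). In the gap on the Hoxb13 side, chr11:96234827-96235328 (-0.34) and chr11:96240138-96240639 (-0.42) were lower, and the first did not pass without NTC replicate 1 or NTC replicate 3 (-0.29 and -0.30). The second was called with hairpin #4 (-0.57) and not with hairpin #1 (-0.26). At Hoxb8, known for its role in myeloid progenitors, the peak 161 bp from the outermost start held 235, 247 and 236 reads in NTC, 238, 238 and 241 with #1, and 202, 224 and 213 with #4, and passed no test (-0.08, SE 0.09, limma adjusted p = 0.42). The RefSeq promoter entry of Hoxb8 lies further inside the gene and held no peak.

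In Hoxc, 1 peak was higher and 1 lower with both hairpins averaged. A peak 27310 bp outside Hoxc13 (chr15:102893320-102893821) had 32.3, 38.0 and 39.3 reads in NTC, 98.4, 99.8 and 110 with hairpin #1, and 112, 121 and 125 with hairpin #4. No hairpin library came near the NTC range (log2 fold 1.58, SE 0.16, limma adjusted p = 9.5e-11). The strongest Hoxc peak, chr15:102890808-102891309, lay close by and passed no test (236 ± 27.7, 230 ± 35.1 and 201 ± 26.5; -0.13, limma adjusted p = 0.29). Inside Hoxc6, chr15:103001189-103001690 was lower (log2 fold -0.58 with an SE of 0.22, limma adjusted p = 0.028) at low mean levels of 58.0, 41.1 and 37.4 reads. Hairpin #4 passed the test there (-0.63) and hairpin #1 did not (-0.52). The peaks at Hoxc5 and beside Hoxc8 passed no test (log2 folds -0.09 and 0.07, limma adjusted p = 0.73 and 0.57).

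Inside Hoxc13, a gene of hair follicle and nail, chr15:102926163-102926664 had 89.6, 116 and 106 reads in NTC, 154, 150 and 102 with #1, and 68.3, 67.8 and 58.2 with #4. Hairpin #4 lay below every other library and hairpin #1 overlapped NTC, and #4 differed from #1 by -1.03 on the log2 scale (SE 0.18, limma adjusted p = 9e-06). The other peak in Hoxc6, chr15:103002063-103002564, had 137 ± 14.8, 200 ± 22.5 and 110 ± 14.3, with a difference of #4 from #1 of -0.86 (SE 0.14, limma adjusted p = 4e-06).

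Hoxd was nearly closed. Its strongest peak, chr2:74715711-74716212, lies inside Hoxd3 at the start of the antisense transcript Hoxd3os1, and had 333, 324 and 294 reads in NTC, 218, 275 and 279 with #1, and 256, 256 and 316 with #4. The fold of -0.26 (SE 0.09, limma adjusted p = 0.017) did not pass without NTC replicate 1, NTC replicate 2 or hairpin #1 replicate 1 (-0.22, -0.24 and -0.20), or when centred on gene-end peaks (-0.19). With all libraries and no centring, hairpin #1 passed (-0.31) and hairpin #4 did not (-0.20). Other peaks of chromosome 2 had a median of -0.25 (-0.32 with hairpin #1 and -0.16 with hairpin #4). The part of that shift in the Hoxd values was not tested. Past Hoxd13, a gene of digit development, neighbouring peaks went opposite ways. The peak 185 bp past it was lower (67.2 ± 3.96, 56.5 ± 2.37 and 42.1 ± 4.32; -0.46, SE 0.19, limma adjusted p = 0.04), called with hairpin #4 (-0.67) and not with hairpin #1 (-0.25). The one 1283 bp past it (chr2:74672886-74673387) was higher, with 71.8, 56.5 and 72.8 reads in NTC, 114, 105 and 111 with #1 and 102, 114 and 116 with #4 (0.72, SE 0.14, limma adjusted p = 6.5e-05). A peak within Gm31790, near Hoxd13, passed no test (-0.10, limma adjusted p = 0.55).

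**Figure D4:**
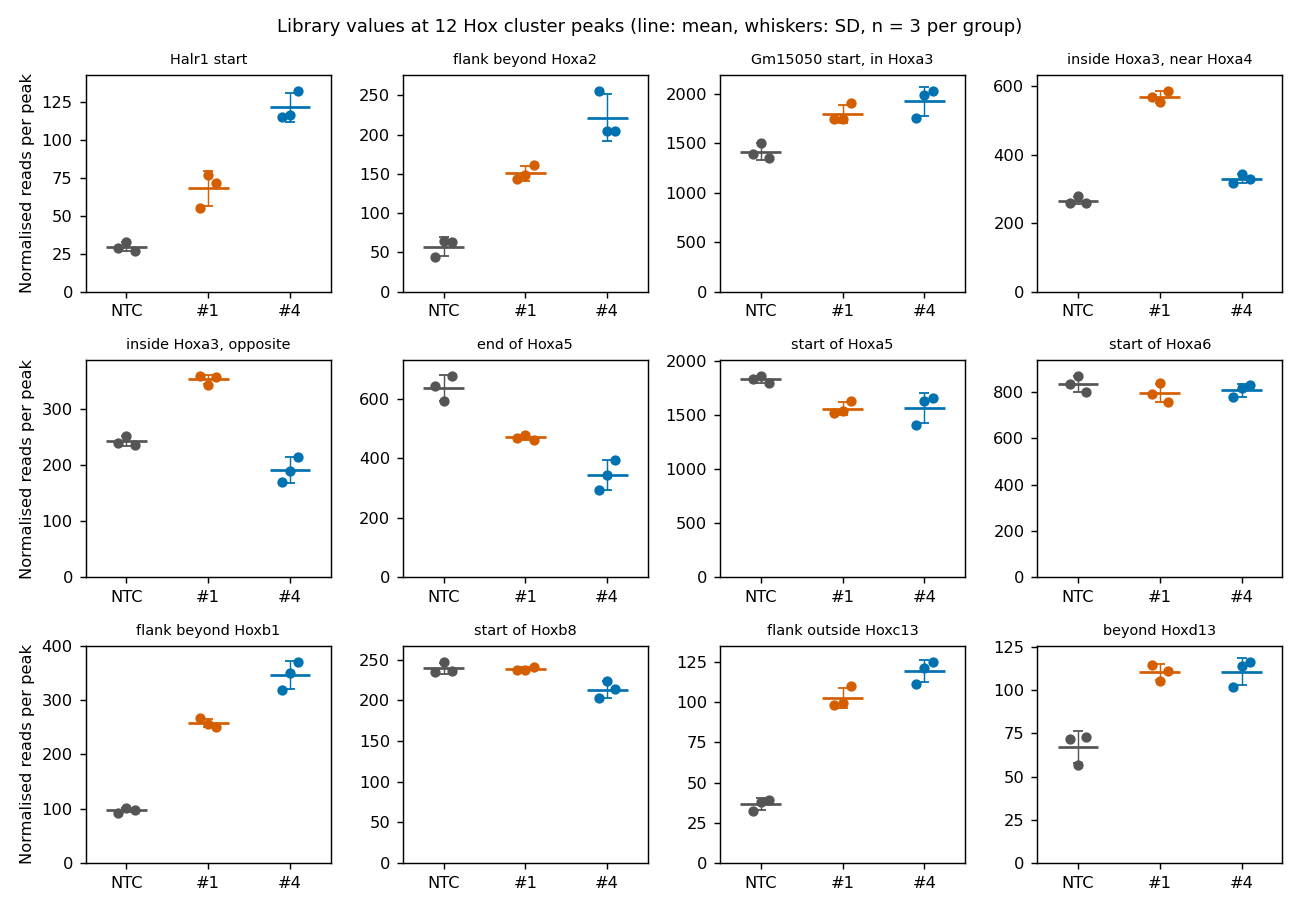
Normalised reads per peak in each library at 12 Hox cluster peaks, with the group mean (line) and SD (whiskers), n = 3 per group; every axis starts at 0. NTC libraries are the lowest of all at the Halr1 start and beyond Hoxa2, Hoxb1 and Hoxc13, and the highest at both Hoxa5 peaks.

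The direct comparison of hairpins called 9 of 58 peaks higher with #4 than with #1 and 13 lower, where 20.4% and 21.2% of all peaks were, or 41.6% together. By position, 8 of 13 flank peaks were higher and 0 lower (the same at an unadjusted limma p under 0.05), and among the genes 1 of 45 was higher and 13 lower. Of those 8, 7 were the flank peaks of Hoxa, with 1 of 4 in Hoxb and 0 of 2 in Hoxc, and counted from the end of the outermost gene the flanks held 8 higher and 1 lower. The one higher among the genes was the peak within Hoxa5 that gained with hairpin #4 (0.30, SE 0.10, limma adjusted p = 0.014). Of the 13 lower, the largest were in Hoxc13, Hoxa3, Hoxc6 and Hoxa3 again, described above.

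Few gene starts were called with both hairpins averaged. Of the 10 peaks within 1 kb of a listed gene's outermost start, 0 were higher and 2 lower (the peaks at Hoxa5 and Hoxa3). Of genes with a peak at either end, 11.6% were higher and 43.4% lower. The averaged counts were also 0 and 2 at an unadjusted limma p under 0.05. Called lower were 1 of the 10 with hairpin #1, 3 with hairpin #4 and 3 for #4 against #1, and 0 were higher in each. Of the 13,063 genes with a gene-end peak, 4676, 5465 and 2107 were lower in these comparisons, and 1472, 1459 and 1902 higher. The Hoxa10 start peak does not overlap the promoter entries of that gene in RefSeq. No peak overlapped a microRNA gene of the clusters. The nearest peak was 0.995 kb from Mir615, 2.2 kb from Mir196a-2, 3.12 kb from Mir196a-1, 7.95 kb from Mir196b, 9.86 kb from Mir10b and 22.2 kb from Mir10a; miR-10 and miR-196 are Hox-embedded microRNAs known to target Hox transcripts. Hotair and Haglr, long non-coding RNA genes of Hoxc and Hoxd, were 12.5 and 32.2 kb from a peak, and Hottip 2.81 kb.

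Summed over all its peaks, Hoxa signal was 23555 ± 83.3 in NTC, 22938 ± 289 with hairpin #1 and 22411 ± 1123 with hairpin #4 (SD, n = 3 each), or 97.4% and 95.1% of NTC. One hairpin #4 library, at 23547, lay within the NTC range of 23490 to 23649. Hoxb signal was 1396 ± 46.4, 1570 ± 64.3 and 1648 ± 79.2, or 112.5% and 118% of NTC, and every hairpin library was above every NTC library. Without the flank peaks the Hoxb log2 ratio was -0.13 in place of 0.21. Hoxc signal was 975 ± 41.4, 1132 ± 55.1 and 983 ± 21.1, so hairpin #1 stood above the others, and Hoxd signal was 594 ± 7.76, 573 ± 41.8 and 549 ± 23.6. For Hoxa the direction depends on the measure, since the log2 ratio of sums was -0.06, and 0.09 as a mean of log2 values, in which weak peaks count as much as strong ones.

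Genes known to act with or on Hox genes were read at 1 gene-end peak each, with both hairpins averaged unless a hairpin is named. Of the TALE cofactors, homeodomain partners of Hox proteins on DNA, 2 of 10 measured were higher and 5 lower, beside 11.6% and 43.4% of all genes with a gene-end peak. With hairpin #1, 2 were higher and 2 lower, beside 1472 and 4676 of all 13,063 genes. With hairpin #4, 3 were higher and 4 lower, beside 1459 and 5465. Tgif2, among the 5, went opposite ways: -0.91 on the log2 scale with hairpin #1 and 0.33 with hairpin #4, each past the test. Meis2 had 24.2, 28.8 and 35.2 reads in NTC, 277, 211 and 243 with hairpin #1, and 296, 258 and 305 with hairpin #4. All hairpin libraries were far above NTC (log2 fold 3.14, SE 0.13, limma adjusted p = 1.6e-21). Pbx4 was higher (303 ± 19.8, 529 ± 30.9 and 512 ± 17.6; 0.78, SE 0.07, limma adjusted p = 2.4e-12) and Pbx3 lower (3467 ± 59.0, 2161 ± 76.3 and 1975 ± 117; -0.75, SE 0.04, limma adjusted p = 2.8e-17).

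Of 20 Polycomb genes measured, 0 were higher and 15 lower, beside 11.6% and 43.4% of all genes. The lowest p-values were at Phc2 (-0.61), Jarid2 (-0.30) and Bmi1 (-0.31), whose peak is shared with another gene. The number lower was 9 after centring on gene-end peaks, and at an unadjusted limma p under 0.05 the counts were 0 and 15. Shares of all genes under that centring or at an unadjusted p are not given, for this or the other regulator lists. Of 7 trithorax genes, whose complexes oppose Polycomb, 1 was higher and 2 lower: Ash2l (0.19, at a peak shared with another gene), Wdr5 (-0.38) and Men1 (-0.13). No H3K27 demethylase gene of that list was measured. Of 5 upstream regulators and architectural genes measured, 0 were higher and 4 lower (0 and 5 at an unadjusted limma p under 0.05), among them Ctcf (-0.28, with 1659 ± 12.0, 1535 ± 69.7 and 1230 ± 210), which encodes the factor that bounds chromatin domains, Gdf11 (-0.17) and the retinoic acid receptor gene Rarg (-0.13). Ctcf and Gdf11 passed with hairpin #4 (-0.45 and -0.34) and not with hairpin #1, and #4 differed from #1 at both (limma adjusted p = 0.00018 and 7.3e-05). Men1 passed with hairpin #4 (-0.17) and not #1, and Rarg with hairpin #1 (-0.17) and not #4. The median over all genes with a gene-end peak was -0.11. Leaving out 1 library moved the number lower to 2 for TALE (without NTC replicate 3), and to 3 without NTC replicate 2, hairpin #1 replicate 2 or hairpin #4 replicate 1. It moved to 1 for trithorax genes without NTC replicate 1 or 2, and for upstream genes to 1 without NTC replicate 1 and 2 without hairpin #1 replicate 2. Meis2, Pbx3, Bmi1 and Wdr5 lie on chromosome 2, whose other peaks had a median of -0.25, and the part of that in their folds was not tested.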

How the data were processed

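ATAC-seq was measured in 9 libraries. The deposited values are signal, normalised reads per peak in a common set of 501-bp peaks, scaled by the authors with DESeq2 per the file's name. Per the submitters' processing notes, the tools were BWA, featureCounts, MACS2, Subread and Trim Galore (versions not given) and the build mm10 or GRCm38. Whether peaks were called on pooled reads is not stated there. Coordinates are as deposited, with no word on counting from 0 or 1. All values were whole multiples of a step (within 0.001 of a read), which gave the depth.

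limma (3.58.1, R 4.3.3; lmFit, eBayes with trend) was run on log2 of value plus 1 for 146,729 peaks whose mean reached 10 (5 removed, none a Hox peak), in 1 fit over 9 libraries, with calls at a Benjamini-Hochberg adjusted p under 0.05 over all peaks. The fit was tested on simulated data with 50 peaks raised at each fold. It called 28% of peaks raised 1.25 fold, 58% at 1.5, 90% at 2 and 100% at 4, and 0.00273% of unchanged peaks. Far fewer peaks changed there than were called in the real data, so these shares do not carry over. A peak that passed no test may still have changed. Libraries are labelled biological replicates, and nothing says they came from separate transductions. The p-values set group differences against the spread between libraries, pooled over the 3 groups and drawn by the fit towards that of all peaks. They may not cover variation between transductions.

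A gene's start was its outermost end facing the higher-numbered paralogs in RefSeq (GRCm38.p6). A gene-end peak is at most 1 kb from an end of a gene, and 13,063 genes had one. Named by rule were, per cluster, the 3 highest peaks, the 3 highest and 3 lowest folds called alike with each hairpin, the 2 largest differences between hairpins, gene-start peaks, peaks nearest to non-coding genes, and the 3 lowest p-values of each regulator list; other peaks named were chosen after their values were seen. Members and lists were chosen with earlier results of these data known. Of the Hoxa peaks, 4 beside a gene not listed were counted but are not reported singly. Alternatives were the pseudocount, filter, scaling, threshold, replicate block, flank margin and leaving out each library.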

Additional observations from a re-analysis of the deposited data

Results flagged for a closer look

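In 2 neighbouring peaks inside Hoxa3 the hairpins changed accessibility in opposite directions, each past the test against NTC. At chr6:52183642-52184143 hairpin #4 differed from hairpin #1 by -0.89 on the log2 scale (SE 0.10, limma adjusted p = 4.2e-09), with 3 of 3 hairpin #1 libraries above and 3 of 3 hairpin #4 libraries below the NTC range. At chr6:52184557-52185058 the difference was -0.66 (SE 0.14, limma adjusted p = 0.00018), and hairpin libraries overlapped the NTC range. Opposite calls were made at 3.17% of all peaks.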

How the results depend on the processing

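No single-peak result turned direction among called values, while the balance of higher and lower calls did with the centring. With all peaks, the median log2 fold moved from -0.02 to 0.05 after centring on gene-end peaks and to -0.12 after centring on peaks away from them, and the share of calls that were higher moved from 51.6% to 62.8% and 36.9%. Of all tested peaks, 26.21% were lower with both hairpins averaged, 19.16% with gene-end centring and 37.51% with the other centring. The Hox peaks lower numbered 15 (with 13 higher), then 9 (14) with gene-end centring and 23 (13) with the other centring. They numbered 9 at an adjusted p under 0.01, and without single libraries they ranged from 9 to 16. For hairpin #1, 10 lower and 15 higher became 19 and 11 with centring away from gene ends and 5 at 0.01, with 6 to 10 without single libraries (6 without NTC replicate 3). For hairpin #4, 18 lower and 16 higher became 32 and 15 with that centring, and shares of all peaks for a single hairpin are not given for it. Quantile normalisation, chosen after seeing the data, gave 13 higher and 17 lower with both hairpins averaged (24.79% and 32.99% of all tested peaks). The log2 ratio of summed signal moved for Hoxa from -0.055 to 0.009 (gene-end centring) and 0.0898 (mean of log2 values), for Hoxb from 0.2052 to -0.1289 (within the genes), 0.2701 and 0.2664, and for Hoxc from 0.1177 to 0.0567 (within the genes) and 0.1796 (gene-end centring). With flanks counted from the outermost gene, the flank median was 0.309 and that of paralogs 1 to 4 was -0.0037. Lower regulators after gene-end centring were 3 TALE, 9 Polycomb, 1 trithorax and 1 upstream genes, and without single libraries 2 to 5 TALE, 1 to 2 trithorax and 1 to 4 upstream. Causes were not tested. Of 1110 alternatives over 60 single-peak results, 1074 kept the call, 23 gained and 13 lost it. With the replicate block the Hox peaks were 14 higher and 15 lower for both hairpins, 15 and 10 for #1, 16 and 18 for #4, and 10 and 13 for #4 against #1, and 7 of 9 libraries correlated best with their own number, a hint from the data only, since deviations of same-numbered libraries had an r of -0.011 to 0.073. Count-based tests were not run.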
